A study of Homo sapiens with 6 samples.

Results

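The Kruppel-like factors (KLFs) are transcription factors that bind GC-rich and CACCC-type DNA through a block of zinc fingers at the C-terminal end, which they share with the SP factors. Their N-terminal parts differ, so that some members activate transcription and others recruit the corepressors CtBP or SIN3A. KLF2 is best known for the quiescence of endothelial cells and T cells, whereas in neurons KLF6 and KLF7 favor axon growth and KLF9 restrains it.

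The names KLF2, KLF3, KLF4, KLF6, KLF7, KLF9, KLF10, KLF11, KLF12 and KLF13 made up the group described here. Members were taken by gene symbol, and the group was chosen by measured values: KLF2 drew attention through its large siPSF to siControl difference in these same libraries. Of the 10 listed genes, 9 were found among the 21301 genes of the table, and KLF4 was not analysed here. All 9 passed the filter on low counts that left 19694 genes. Because the contrast was used in the choice, the differences of members between groups are given below as a description and without a test.

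The libraries came from SH-SY5Y cells, a human neuroblastoma line, treated with siControl or with siPSF at 10 nM, an siRNA against the RNA-binding protein PSF (gene SFPQ), and harvested at 72 h. There were 3 libraries per group, all from this single cell line, and poly(A) RNA was sequenced. All siPSF libraries carried a single siRNA sequence, so an effect of PSF loss and an off-target effect of that sequence cannot be told apart. The methods call the libraries of a group biological triplicates, and p-values measure the spread between these libraries. Summed counts ran from 119019293 to 132420931 in siControl and from 101540520 to 120627283 in siPSF libraries.

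SFPQ stood at 372, 356 and 401 CPM (counts scaled to a common library size after TMM normalization, which allows for library composition) in siControl and at 209, 193 and 165 CPM in siPSF. The fitted log2 ratio of siPSF over siControl (log2FC) was -0.99, with a standard error (SE) of 0.10 and an adjusted p of 9.5e-05 by edgeR's quasi-likelihood test. Of the sympathetic neuroblast markers, 8 of 8 were measured, with a summed level of 3876 to 4403 CPM in siControl and 3336 to 3810 CPM in siPSF. Without DBH the other 7 summed to 2300 to 2391 CPM in siControl and 2329 to 2659 CPM in siPSF, and the median log2FC of the 8 was 0.04. Of these, edgeR called GATA3 higher and the catecholamine enzyme genes DBH and TH lower, with log2FC values of 0.30, -0.68 and -1.20 (adjusted p = 0.032, 0.0024 and 0.025). TH was near the floor, at 0.651 to 0.839 CPM in siControl and 0.172 to 0.417 CPM in siPSF, whereas DBH averaged 1738 and 1085 CPM. GATA3 lost the call when any single library was left out, and TH without siControl replicate 2 or 3 (0.10 and 0.061). Of markers of cells in which KLF2 is usually studied, 2 of 6 endothelial genes were measured, with sums of 2.12 to 2.56 CPM in siControl and 2.77 to 3.02 CPM in siPSF. Each of the 2, CLDN5 and ESAM, overlapped between the groups, and edgeR called 0 of them. Their log2FC values were 0.37 and 0.27 (edgeR's adjusted p = 0.60 and 0.33). Of 6 leukocyte markers only CD4 was measured, at 0.0411 to 0.0953 CPM in siControl and 0.161 to 0.548 CPM in siPSF (log2FC 2.15, edgeR's adjusted p = 0.017). CD4 lost the call without siControl replicate 2 or 3 or siPSF replicate 3 (0.072, 0.053 and 0.052). The part of these markers in the KLF values was not tested. The 5 measured fibroblast and Schwann-like markers summed to 42.7 to 61.8 CPM in siControl and 41.6 to 48.0 CPM in siPSF. PDGFRB made up most of this sum (mean 49.8 and 38.1 CPM, log2FC -0.39). COL1A1, LUM and S100B were at 0.55, 0.57 and 0.61, whereas COL1A2 was at -0.12, and the list median was 0.55. edgeR called 0 of the 5, with 3 at an unadjusted p under 0.05, and DESeq2 called 3, PDGFRB lower and COL1A1 and LUM higher (DESeq2 adjusted p = 0.035, 0.045 and 0.042).

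The DNA before the KLF2 start is shown because KLF2 differed most between the groups and because MEF2, which acts below the kinase ERK5, is a known inducer of this gene. KLF2 (gene ID 10365) occupies chr19:16324826-16328685 on the plus strand of GRCh38.p14. The sequence is the 250 bases before the RefSeq start, chr19:16324576-16324825, written 5′ to 3′ from the GRCh38.p14 promoter table. No GENCODE exon overlaps it, but the near edge of the RefSeq lncRNA gene KLF2-DT lies inside it, at a distance of 156 bases from the KLF2 start. KLF2-DT had no measurement. Capitals mark 4 matches to the GC box GGGCGG on either strand, 2 of which adjoin at the left end, and 1 match to the MEF2 element.
KLF2: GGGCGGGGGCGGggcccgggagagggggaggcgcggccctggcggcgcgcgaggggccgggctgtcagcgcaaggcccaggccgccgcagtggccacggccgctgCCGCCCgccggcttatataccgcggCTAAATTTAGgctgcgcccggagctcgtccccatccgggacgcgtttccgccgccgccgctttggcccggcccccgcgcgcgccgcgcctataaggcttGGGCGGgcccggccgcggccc

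The MEF2 match, CTAAATTTAG, lies at chr19:16324706-16324715, with 110 bases between it and the start. Searched on both strands, a MEF2 element occurred in 2.80% of all 35116 promoter windows of 250 bases in the table and a GC box in 42.6%. Promoter windows were found for 7 of the 9 members, and KLF3 and KLF10 have no entry in the table. Over the 14 windows of these 7 genes, 7 held a GC box, 6 a CACCC box (CACCC, found in 54.7% of all windows) and 2 a MEF2 element. The other MEF2 match was in a window of KLF12.

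KLF12 is shown because it was lower after siPSF and because the window shown, picked after the matches were seen, held 5 CACCC boxes, whereas the KLF2 window had 0. Of the other 3 KLF12 windows, 1 also held 5 CACCC boxes (66.8% G or C) and 2 held 0 (38.4% and 44.4%). The window shown was 72.0% G or C and that of KLF2 80.0%. It also has 4 GC boxes, not in capitals, as many as that of KLF2. How many of all windows hold as many boxes was not counted. The sequence is the 250 bases before 1 of the 4 KLF12 starts, chr13:74134405-74134654, on the minus strand of GRCh38.p14, written 5′ to 3′. Capitals mark the CACCC boxes, which read GGGTG on this strand. A match of letters is a description and not a binding site.
KLF12: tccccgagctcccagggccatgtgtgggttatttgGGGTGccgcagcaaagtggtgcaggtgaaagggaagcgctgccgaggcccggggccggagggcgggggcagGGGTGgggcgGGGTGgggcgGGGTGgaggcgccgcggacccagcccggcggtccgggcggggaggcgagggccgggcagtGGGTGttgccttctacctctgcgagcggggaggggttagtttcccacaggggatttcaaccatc

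To see which KLFs SH-SY5Y cells express, levels were compared per length as FPKM in the siControl libraries. KLF10 was highest at 34.1 ± 2.72 FPKM (SD, n = 3) and KLF2 lowest at 0.110 ± 0.0359 FPKM (SD, n = 3), a 311-fold range. Between them came KLF13 at 19.0 ± 1.58, KLF11 at 18.1 ± 1.70, KLF7 at 14.1 ± 2.0, KLF3 at 6.08 ± 1.10, KLF6 at 5.90 ± 0.531, KLF12 at 4.72 ± 0.636 and KLF9 at 1.49 ± 0.199 FPKM (SD, n = 3 each). Among the 8 pairs of neighbours in this order, the libraries overlapped in 3, namely KLF13 and KLF11, KLF3 and KLF6, and KLF6 and KLF12. In the siPSF libraries KLF11 (16.2 ± 1.78 FPKM) and KLF13 (16.03 ± 0.752 FPKM; SD, n = 3 each) stood in the opposite order, again with overlap, and every other rank was as in siControl. KLF2 remained last there at 0.619 ± 0.102 FPKM (SD, n = 3), below KLF9 at 1.30 ± 0.176 FPKM (SD, n = 3). In siControl, 14.98% of all genes in the table had a lower mean FPKM than KLF2, against 90.7% for KLF10.

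**Figure D1:**
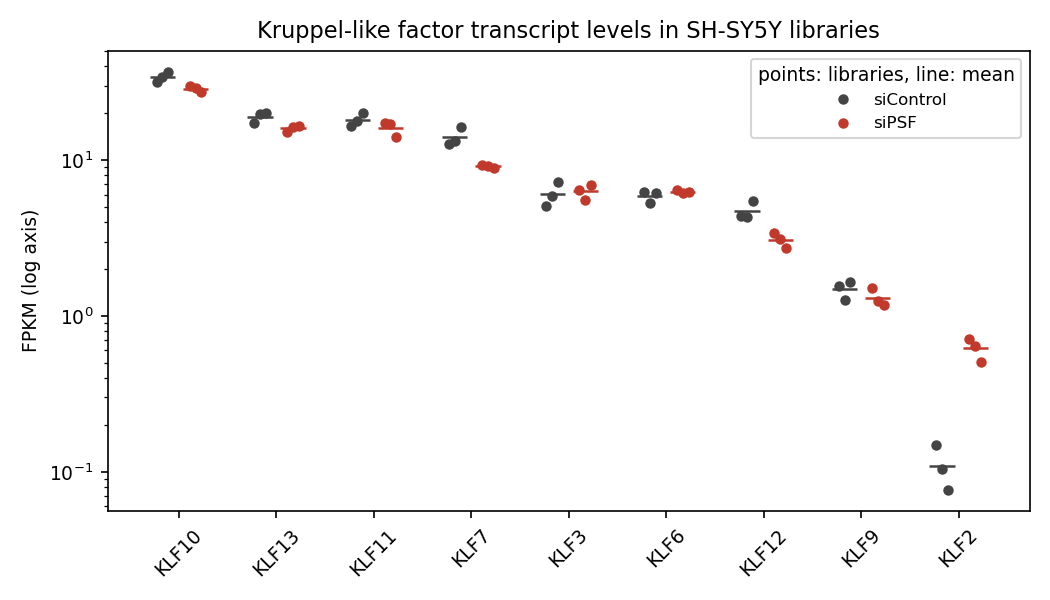
FPKM on a log axis of the 9 measured Kruppel-like factors in each siControl and siPSF library (points, 3 per group; line, mean). KLF10 is highest and KLF2 lowest in both groups, and KLF2 moves from a mean of 0.110 to 0.619 FPKM.

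KLF2, the flow- and statin-induced factor of quiescent endothelium, was counted at 56, 43 and 29 reads in the siControl libraries and at 268, 217 and 162 reads in the siPSF libraries. Whether the mates of a read pair were counted once or separately is not given in the sources used here, so the number of RNA fragments behind these counts may be smaller. The corresponding levels were 0.460, 0.322 and 0.230 CPM and 2.26, 2.06 and 1.64 CPM. The lowest siPSF library therefore lay well above the highest siControl library. The ratio of the mean levels was 5.88 and the fitted log2FC 2.56 (SE 0.27), the 23rd highest of the 19694 genes tested. Leaving out each library in turn moved this value between 2.34 and 2.84. In bulk RNA, a larger share of cells expressing KLF2 and more KLF2 RNA per cell cannot be told apart. Of the genes next to KLF2, EPS15L1, which encodes an endocytic adaptor protein and lies 26.6 kb beyond the KLF2 end, was at 59.7 to 69.1 CPM in siControl and 57.1 to 59.2 CPM in siPSF, with a log2FC of -0.15 (edgeR's adjusted p = 0.26).

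KLF7 (gene ID 8609, chr2:207074137-207173851), which promotes axon outgrowth in developing neurons, was at 112, 118 and 140 CPM in siControl and 84.2, 85.5 and 81.5 CPM in siPSF. All 3 siPSF libraries lay below all siControl libraries, and the siPSF libraries lay close together. The fitted log2FC was -0.56 (SE 0.09), with 67.9% of the siControl mean left. KLF6, an early-response factor that also favors axon growth, was at 30.9, 26.4 and 29.6 CPM in siControl and 32.9, 32.1 and 32.4 CPM in siPSF, a log2FC of 0.17 (SE 0.09). On the CPM scale the KLF6 groups did not overlap, but as FPKM they did (5.28 to 6.22 against 6.16 to 6.41). KLF9, a hormone-induced factor that limits neurite growth, was at 8.83, 7.20 and 8.97 CPM and at 8.76, 7.36 and 6.94 CPM, with overlapping groups and a log2FC of -0.12 (SE 0.14).

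KLF12 (gene ID 11278, chr13:73686089-74306045), a CtBP-recruiting repressor first described for its action on the AP-2 alpha gene, was at 50.5, 48.8 and 58.3 CPM in siControl and 39.8, 37.0 and 32.98 CPM in siPSF. The groups did not overlap, and the fitted log2FC was -0.52 (SE 0.10), with 69.6% of the siControl mean left. KLF3, which represses through the same CtBP proteins, was at 29.2, 34.5 and 41.4 CPM in siControl and 38.6, 34.0 and 43.1 CPM in siPSF. Its groups overlapped and its log2FC was 0.14 (SE 0.13), with values of 0.02 to 0.27 when each library was left out in turn. Whether KLF3 differed in direction from KLF12 is therefore not settled.

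KLF10 and KLF11, the TGF-beta-inducible early genes that recruit SIN3A, stood close to their control levels. KLF10 was at 99.8, 108 and 113 CPM in siControl and 99.3, 96.6 and 91.8 CPM in siPSF, with a narrow gap between the groups and a log2FC of -0.16 (SE 0.08). KLF11 was at 72.6, 77.8 and 84.0 CPM and at 77.8, 78.9 and 64.8 CPM, with overlapping groups and a log2FC of -0.08 (SE 0.10). Without siPSF replicate 3 the KLF11 value was 0.0043. KLF13, another SIN3A-binding member, known from CCL5 expression in T cells, was at 128, 148 and 143 CPM and at 116, 128 and 129 CPM. On the CPM scale the KLF13 groups overlapped, with a log2FC of -0.17 (SE 0.09), but as FPKM they did not (17.2 to 20.0 against 15.2 to 16.5).

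**Figure D2:**
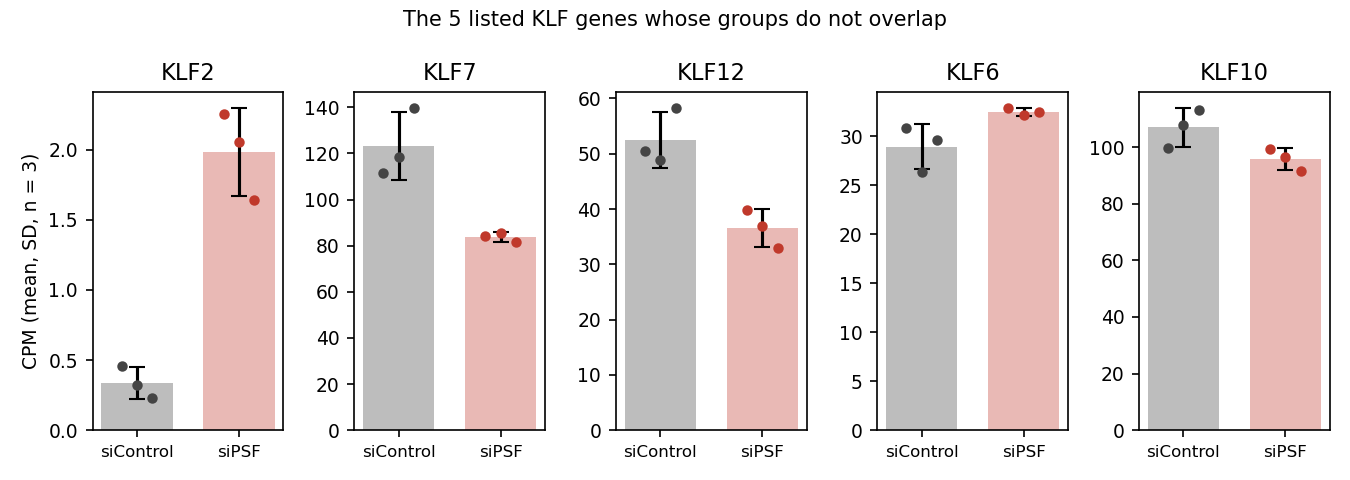
CPM of KLF2, KLF7, KLF12, KLF6 and KLF10 in siControl and siPSF libraries (bars, mean with SD, n = 3; points, libraries), each panel on its own axis from 0. The KLF2 means are 0.338 and 1.98 CPM, and those of KLF7 are 123 and 83.7 CPM.

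Counted together, 3 of the 9 members lay past an adjusted p of 0.05 in the fit, KLF2 higher and KLF7 and KLF12 lower, beside 14.9% of all genes tested (6.65% higher and 8.27% lower). On the CPM scale the groups did not overlap in 5 of the 9, beside 34.4% of all genes tested. Members were chosen with this contrast known, so nothing is read from these counts. The median log2FC of the members was -0.12, beside 0.01 over all genes tested. The gene lengths ran from 3.86 kb in KLF2 to 620 kb in KLF12, and the 3 longest members, KLF12, KLF13 (109 kb) and KLF7 (99.7 kb), had the 3 lowest log2FC values on the CPM scale. With limma on FPKM values, KLF10, a gene of 6.94 kb, stood as low as KLF13, both at -0.24. Among the shorter members the log2FC did not follow length, since KLF3 (37.3 kb, 0.14) stood above KLF10 (-0.16) and KLF11 (11.3 kb, -0.08).

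Genes around the members were examined by position in the RefSeq annotation of GRCh38.p14. Of 29 nearest or overlapping genes, 10 had a measurement and 9 passed the filter, of which 1 was called. This was MYOSLID-AS1, a lncRNA gene 12.8 kb from KLF7 on its 5′ side, at 0.485, 0.322 and 0.365 CPM in siControl and 0.126, 0.114 and 0.132 CPM in siPSF. It fell with KLF7, with a log2FC of -1.65 (SE 0.33, edgeR's adjusted p = 0.0062), and was called when any single library was left out. Next to KLF11, CYS1, a gene of the primary cilium at a distance of 1.64 kb, had a log2FC of -0.67 (edgeR's adjusted p = 0.071, DESeq2's 0.043). SMC5 near KLF9 was at -0.19, CPO near KLF7 at 0.18 and LOC101927245 near KLF10 at -0.15, with edgeR's adjusted p of 0.28, 0.58 and 0.65. KLF9-DT and LOC105370259, which overlap KLF9 and KLF12, were below 0.4 CPM in every library and were not called (adjusted p = 1 and 0.64). The antisense gene KLF3-AS1 overlaps KLF3 and stood at 2.74 to 3.45 CPM in siControl and 2.02 to 3.28 CPM in siPSF (log2FC -0.32, edgeR's adjusted p = 0.30, and 0.042 without siPSF replicate 3). Strand use in counting is not given in the sources used here, so reads of KLF3 and KLF3-AS1 cannot be told apart where they overlap. The same limit holds for KLF9-DT with KLF9 and for LOC105370259 with KLF12.

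The family members outside the list were tested in the same fit of the same libraries. Of 8 other KLF genes, 4 were measured, and 0 were called by edgeR's quasi-likelihood test, with 0 at an unadjusted p under 0.05 and 0 called by DESeq2. KLF1, the erythroid factor, was at 0.524 to 1.09 CPM in siControl and 0.853 to 1.33 CPM in siPSF (log2FC 0.48, edgeR's adjusted p = 0.29). KLF5, an epithelial growth factor response gene, was at 0.615 to 0.826 CPM and 0.530 to 1.04 CPM (0.04, adjusted p = 0.95). KLF15, a metabolic regulator, was at 17.7 to 19.6 CPM and 19.5 to 25.2 CPM (0.22, adjusted p = 0.24). KLF16, a SIN3A-binding repressor, was at 48.8 to 56.1 CPM and 56.9 to 70.4 CPM (0.20, adjusted p = 0.23), with groups that did not overlap.

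Of 9 SP genes, 6 were measured and 0 were called by edgeR, with 1 at an unadjusted p under 0.05 and 0 called by DESeq2. SP1, the ubiquitous GC box activator, was at 107, 116 and 134 CPM in siControl and 102, 107 and 87.5 CPM in siPSF, with a log2FC of -0.27 (edgeR's adjusted p = 0.11). SP2 had a log2FC of 0.15, SP3 of -0.09 and SP4, a neuron-enriched member, of -0.11, with adjusted p-values of 0.27, 0.62 and 0.64. SP6 and SP7, known from tooth and bone, were below 1.4 CPM in every library, with log2FC values of 0.65 and 0.06 (adjusted p = 0.20 and 0.94). A p above the limit does not show that these genes were equal in the groups.

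**Figure D3:**
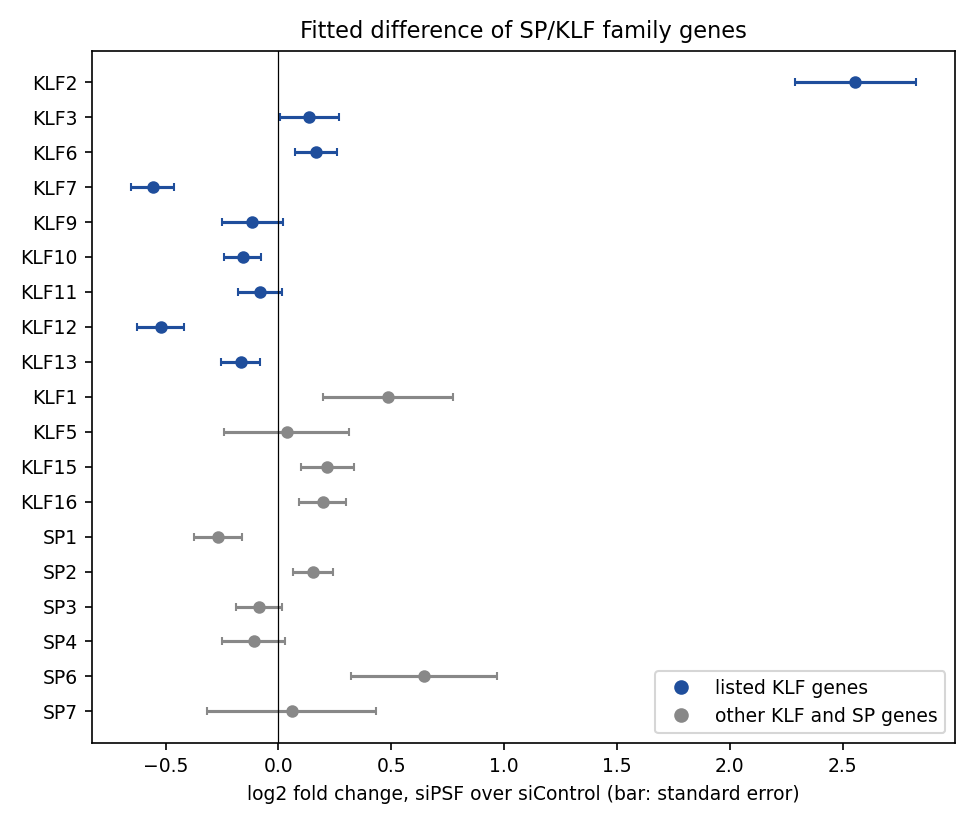
Fitted log2FC values (siPSF over siControl; bars, SE) of the 9 listed KLF genes and of the 10 other measured KLF and SP genes. KLF2 stands at 2.56, KLF7 and KLF12 at -0.56 and -0.52, and the SP genes between -0.27 and 0.65.

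Genes linked to KLF2 were followed upstream and downstream. The cascade that induces KLF2 runs from the kinases MAP3K2 and MAP3K3 through MAP2K5 and MAPK7 (ERK5) to the MEF2 factors, and 8 of 8 of its genes were measured. edgeR called 0 of them, with 1 at an unadjusted p under 0.05 and 1 called by DESeq2. MAPK7 was at 47.5 to 54.0 CPM in siControl and 46.0 to 49.1 CPM in siPSF (log2FC -0.10, adjusted p = 0.50), and MEF2D at 74.0 to 78.4 CPM and 72.0 to 78.7 CPM (0.01, adjusted p = 0.93). MEF2C, the gene called by DESeq2, was at 3.07 to 3.60 CPM and 1.55 to 2.89 CPM, with a log2FC of -0.58 (edgeR's adjusted p = 0.081, 0.037 without siPSF replicate 1; DESeq2 adjusted p = 0.025). Of 12 genes known to respond to KLF2 or KLF4 in endothelial and T cells, 5 were measured and 1 was called. ASS1, the arginine synthesis enzyme that KLF2 raises in endothelium, averaged 4.68 ± 1.07 CPM in siControl and fell to 2.88 ± 0.224 CPM in siPSF (SD, n = 3 per group), with a log2FC of -0.70 (edgeR's adjusted p = 0.020). Its call was lost without siControl replicate 2 or 3 or siPSF replicate 2 (adjusted p = 0.11, 0.074 and 0.056). NOS3, the endothelial nitric oxide synthase, was at 0.897 to 1.27 CPM and 0.815 to 1.42 CPM (log2FC -0.01, adjusted p = 0.99). CDKN1A, the p21 cell cycle inhibitor, was at 612, 671 and 570 CPM in siControl and 894, 1027 and 491 CPM in siPSF (log2FC 0.38, adjusted p = 0.23, 6.2e-04 without siPSF replicate 3).

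Proteins that KLFs bind, and ligases that mark them for degradation, were each called in a few genes. Of 11 cofactor genes 2 were called, both lower. These were CREBBP and EP300, related acetyltransferase coactivators, with log2FC values of -0.40 and -0.37 (edgeR's adjusted p = 0.0056 and 0.028). The EP300 call was lost without siControl replicate 2 or 3 or siPSF replicate 1 or 3 (adjusted p = 0.097, 0.091, 0.066 and 0.054). The CtBP and SIN3 genes were not called, with log2FC values of 0.04 in CTBP1, -0.07 in CTBP2, -0.04 in SIN3A and 0.02 in SIN3B (adjusted p from 0.63 to 0.92). HDAC2, a deacetylase of the SIN3 complex, had a log2FC of 0.30 (adjusted p = 0.083, 0.034 with a replicate block, 0.050 without siControl replicate 1 and 0.044 without siPSF replicate 2). Of 7 ubiquitin ligase genes, SMURF1, which acts on KLF2, fell from a mean of 64.6 ± 1.60 to 47.8 ± 3.41 CPM (SD, n = 3 each, log2FC -0.43, edgeR's adjusted p = 0.0060). FBXW7, a ligase known for KLF2 and KLF5, rose from 32.0 ± 1.94 to 40.1 ± 2.62 CPM (SD, n = 3 each, 0.33, edgeR's adjusted p = 0.034). FBXW7 lost the call without siControl replicate 1 or 2 or siPSF replicate 1 or 2 (adjusted p = 0.071, 0.16, 0.16 and 0.063). FBXO32 and SIAH1 had log2FC values of 0.35 and 0.27 (adjusted p = 0.15 and 0.16), and became called without siControl replicate 1 (0.046) and without siPSF replicate 2 (0.039), respectively.

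Among 9 early genes of TGF-beta and BMP signaling, the setting in which KLF10 and KLF11 are known, 4 were called, 3 higher and 1 lower. SMAD6, an inhibitory SMAD, rose from 9.44, 7.82 and 7.79 CPM to 24.8, 24.8 and 18.4 CPM, a log2FC of 1.44 (SE 0.14, edgeR's adjusted p = 6.5e-05). ID2, an inhibitor of basic helix-loop-helix factors, rose by 0.74 (adjusted p = 0.0081, 0.060 without siControl replicate 3). SMAD7, the other inhibitory SMAD, rose by 0.35 (adjusted p = 0.031), but lost the call without siControl replicate 1 or 2 or siPSF replicate 1 or 2 (0.088, 0.15, 0.11 and 0.072). TGIF1, a SMAD corepressor, fell from a mean of 8.39 ± 0.543 to 5.08 ± 0.596 CPM (SD, n = 3 each, log2FC -0.72, edgeR's adjusted p = 0.0035). ID1 and ID3 had log2FC values of 0.18 and 0.28 (adjusted p = 0.37 and 0.14) and became called without siPSF replicate 3 (0.017 and 0.0045).

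KLF2, KLF6 and KLF10 also belong to the genes induced within minutes of stimulation, and 12 such genes were set beside them. Of these, 3 were called, all lower. ATF3, a stress-induced factor, was at 121, 109 and 102 CPM in siControl and 86.4, 84.5 and 70.4 CPM in siPSF (log2FC -0.46, edgeR's adjusted p = 0.0093). JUN had a log2FC of -0.46 (adjusted p = 0.028, 0.087 without siControl replicate 1 and 0.059 without siPSF replicate 1). EGR3 was at 0.395, 0.442 and 0.516 CPM and at 0.0758, 0.246 and 0.142 CPM, a log2FC of -1.55 (adjusted p = 0.020, 0.064 and 0.083 without siControl replicate 2 or 3 and 0.065 without siPSF replicate 1). FOS (-0.18, adjusted p = 0.59), JUNB (-0.05, 0.75) and IER2 (0.11, 0.39) were not called, and EGR1 (-0.53, 0.12) was called only without siPSF replicate 2 (0.025) among these fits.

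Among 8 genes of axon growth, 7 were measured and 2 were called, both lower. NTRK2, the TrkB receptor gene, went from 5.70, 4.53 and 4.80 CPM to 2.95, 2.07 and 1.66 CPM, a log2FC of -1.16 (SE 0.20, adjusted p = 0.0026). It was also called when any single library was left out. ATF3 was the other call. GAP43, a growth cone protein gene, had a log2FC of 0.29 (adjusted p = 0.064, 0.029 without siPSF replicate 3, 0.049 with a replicate block, and called by DESeq2). SOX11 had a log2FC of -0.29 (adjusted p = 0.32, 0.0043 without siPSF replicate 3) and L1CAM of -0.26 (adjusted p = 0.088). Of 6 glucocorticoid-induced genes, the setting of KLF9, 5 were measured, and SGK1, an ion transport kinase, was the one called (-0.59, edgeR's adjusted p = 0.021, 0.054 and 0.087 without siControl replicate 2 or 3). FKBP5 had a log2FC of -0.26 (adjusted p = 0.11), and TSC22D3, PER1 and DUSP1 were at -0.11, -0.05 and 0.00 (adjusted p = 0.51, 0.77 and 0.99).

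**Figure D4:**
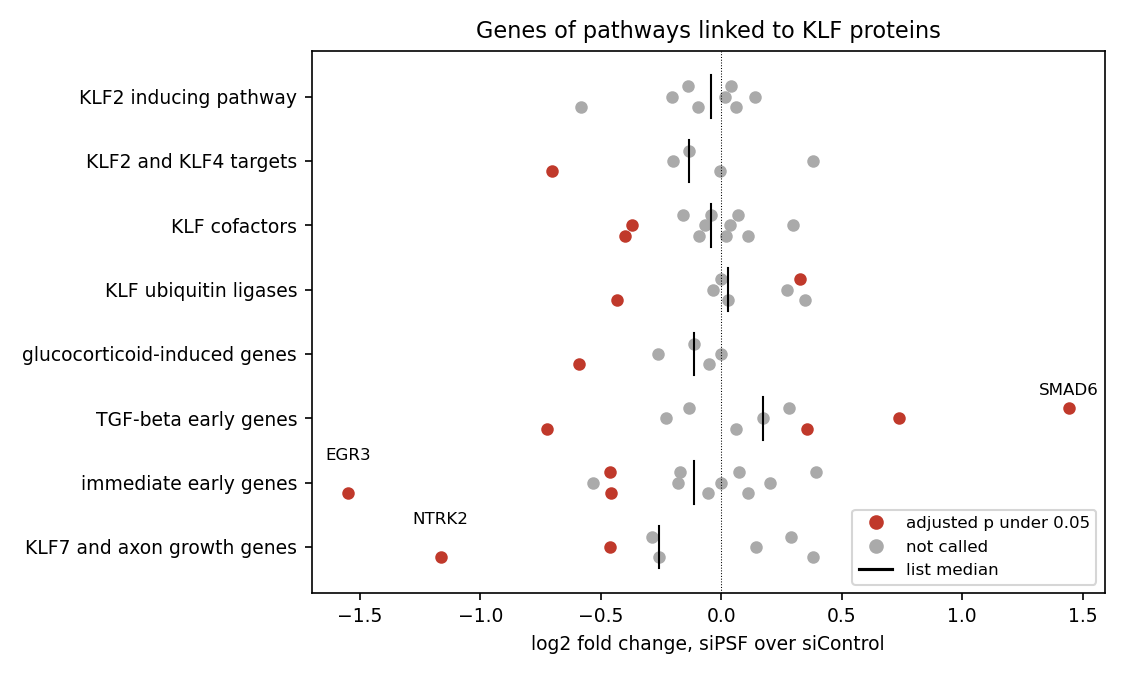
log2FC values (siPSF over siControl) of single genes in 8 lists linked to KLF proteins (red, adjusted p under 0.05; grey, not called; black line, list median). SMAD6 lies farthest right at 1.44 and EGR3 farthest left at -1.55.

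The medians of these lists ran from -0.26 for axon growth genes to 0.18 for TGF-beta early genes, beside 0.01 over all genes tested, and 4 genes stand in more than 1 list. With 14.9% of all genes called, lists of 5 to 12 measured genes hold a called gene often, and nothing particular to a list is read from its count.

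Genes with a pattern like that of KLF2 were sought by Pearson correlation of log2(CPM + 0.1) over the 6 libraries among 12645 protein-coding genes averaging 1 CPM or more. The 5 nearest were C14orf28 (r = 0.9989), EPS8L2 (0.9986), SSBP1 (0.9982), MRPL45 (0.9962) and TSPAN8 (0.9959). These values rest on 6 libraries in 2 groups, mostly follow the step between the groups, and share library depth. The order of KLF2 within each group was kept, so that TSPAN8, a tetraspanin gene, was at 11.1, 9.19 and 8.35 CPM in siControl and 20.4, 18.4 and 16.8 CPM in siPSF. SSBP1, a mitochondrial DNA-binding protein gene, was at 86.8, 83.6 and 79.4 CPM and at 106, 105 and 103 CPM. With 1 in place of 0.1 as the added constant, C14orf28 and EPS8L2 stayed among the 5 nearest and the other 3 did not. Among the members, r with KLF2 ran from -0.97 in KLF7 to 0.80 in KLF6.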

How the data were processed

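Poly(A)-selected RNA of 3 siControl and 3 siPSF libraries was analysed, and groups came from the sample titles. The authors deposited read counts per gene without normalization and FPKM values, which their methods call RPKM. To make them, the authors' methods name Bowtie 2, TopHat, hg38 and RefSeq, whereas the submitters' processing notes name Trimmomatic, HISAT2 2.1.0 and StringTie 2.1.3b on GRCh38. The smallest count in the deposited table is 1. Counts were filtered with filterByExpr, scaled by TMM and fitted with edgeR 4.0.16 (quasi-likelihood test; R 4.3.3) without a block. Benjamini-Hochberg adjustment ran over 19694 genes, and genes were called at an adjusted p under 0.05. The standard error is the absolute log2FC over the root of F. Alternatives used DESeq2 1.42.0, limma 3.58.1 on log2(FPKM + 0.5), a replicate block, no filter, and each library left out. Tested on a single draw of simulated counts with planted changes, the fit recovered most of them, with a share of false calls above the nominal limit. The planted changes were fewer than the genes called here and larger than many of their log2FC values. Neither share therefore carries over to the calls reported above. Libraries of a group differed by more than sampling noise (chi-square per degree of freedom 31.8 or more). Members and lists were chosen with earlier results of these data known. Named genes were all members, other KLF and SP genes, up to 3 called genes per list, neighbours, and the 5 genes most like KLF2; other list genes were chosen after their values were seen. One gene of the axon growth list is not reported here and was taken out of that list's counts.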

Additional observations from a re-analysis of the deposited data

How the results depend on the processing

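The fitted log2 fold changes of the 9 measured KLF genes kept their sign under DESeq2's size factors, DESeq2's Wald test, no filter and the replicate block, where KLF2 was at 2.58. Limma with the planned filter dropped KLF2, whose mean FPKM is under 0.5; without that filter, chosen after seeing the data, KLF2 was at 1.78, since the added 0.1 compresses low values. For KLF10, limma gave -0.24 against -0.16, while the median of all genes moved from 0.01 to -0.06. Deviations of log2 CPM from the group mean had r = -0.02, 0.10 and 0.06 in same-numbered libraries and -0.16 to 0.09 in the other pairs. Within groups of 3 these deviations sum to 0, so the values cannot show whether the numbers pair the libraries. The replicate block gave 3029 called genes against 2938. Leaving out 1 library gave 1500 to 3140 called genes, with 1500 without siControl replicate 2 and 1754 without siControl replicate 3. Over these 6 fits the calls numbered 0 to 1 in the KLF2 cascade and among glucocorticoid-induced genes, 0 to 2 among KLF2 and KLF4 targets, 1 to 3 among cofactors, 1 to 2 among ligases, 1 to 4 among immediate early genes and 2 to 5 among axon growth genes (5 without siPSF replicate 3). Among TGF-beta early genes the calls numbered 3 to 6 over the same fits, with 6 without siPSF replicate 3. DESeq2's Wald test called 1 gene of the cascade, and limma on FPKM called 2 targets and 1 ligase. KLF2 rests on 29 to 56 reads per siControl library, which limits its precision.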
